A study of Rattus norvegicus with 8 samples.

Results

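Crem, Creb1, Atf1, Crtc1, Crtc2, Crtc3, Sik1, Sik2 and Sik3 form the set of CREB-type transcription factors, their Crtc coactivators and the salt-inducible kinases (SIKs) described here. They were listed by gene symbol. Of the 9 genes, 7 had a row among the 17337 genes of the count data, and all 7 passed the filter on low counts that left 12014 genes. Crtc3 and Sik2 were not analysed here. The mRNA came from the striatum of 8 wild-type male Sprague-Dawley rats, 4 that had self-administered methamphetamine (METH, 0.05 mg/kg per infusion) and 4 that had self-administered saline. Both groups had food training and catheter surgery and then sessions of 2 h per day for 16 days. Of the 24 rats given METH and the 8 given saline, 4 in each group with stable lever pressing over the last 3 days were chosen for sampling, and the groups here hold 4 each. The time between the last session and collection of the brain is not given in the sources used here.

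CREB1, CREM and ATF1 are closely related leucine-zipper proteins that bind the cAMP response element (CRE), and they are phosphorylated by protein kinase A and by calcium-activated kinases. The Crtc proteins are coactivators of CREB that are held in the cytoplasm while phosphorylated by SIKs and enter the nucleus once cAMP inhibits the SIKs or calcineurin removes the phosphate. Crem and Sik1 are themselves known CRE-driven genes. Crem has an internal promoter that gives the short repressor ICER, and SIK1 phosphorylates the Crtc proteins, so both products can act against CREB. In the striatum, dopamine D1 receptors raise cAMP and D2 receptors lower it in projection neurons.

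The total count ranged from 18135939 to 21211920 per rat. Values are given as CPM (each count scaled to a common library size, with library sizes adjusted by the TMM method), and a gene was called when its false discovery rate (FDR) over all genes tested was below 0.05 in the quasi-likelihood test of edgeR and its mean log2 CPM was above 1. METH replicate 3 stood apart on the first principal component (26.4% of the variance), at 39.5 against 0.257 to 5.29 in the other METH rats and -24.6 to -4.17 in the saline rats. In saline replicate 1 the sum of 4 cortical neuron markers (Slc17a7, Neurod6, Tbr1 and Neurod2) was 77.2 CPM, against 3.30 to 4.11 CPM in the other saline rats and 3.69 to 13.1 CPM in the METH rats. The sum of 9 projection neuron markers, Drd1, Drd2 and Ppp1r1b among them, was 14384 to 15341 CPM in saline rats and 15151 to 19184 CPM in METH rats, with the highest value in METH replicate 3. None of these 9 genes was called. Of 6 microglia markers 1 was called, Cx3cr1, which was lower (the summed level was 236.3 to 274.5 CPM in saline and 198.0 to 243.4 CPM in METH rats). The summed levels overlapped between the groups for 6 markers each of oligodendrocytes (12166 to 18636 CPM over all rats) and astrocytes (2001 to 2478 CPM) and for 5 of endothelium (379.8 to 550.9 CPM), with none called. The 6 choroid plexus markers summed to 3.35 to 5.17 CPM in saline and 4.90 to 7.29 CPM in METH rats, with 2 of them tested, none called and Otx2 at 0 in every rat. The part of these differences in the results below was not tested. Where a value without a rat is given, it leaves out the whole rat and not its marker levels alone. Fewer cells of a type and less RNA per cell cannot be told apart in such samples.

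Crem was the only member called, with higher mRNA in METH rats. Crem was at 19.2, 24.7, 20.2 and 21.4 CPM in saline replicates 1 to 4 and at 31.3, 31.6, 32.0 and 35.2 CPM in METH replicates 1 to 4. Every METH rat lay above every saline rat, and the METH rats were close together. The saline mean of 21.4 ± 2.40 CPM (SD, n = 4) compared with a METH mean of 32.5 ± 1.83 CPM (SD, n = 4). The log2 fold change was 0.60 (standard error 0.10, 95% interval 0.38 to 0.82), or 1.52 times the saline level, with FDR = 0.0149 in the edgeR quasi-likelihood test. The exact permutation test of log2 CPM gave a two-sided p of 0.0286, the smallest that 4 rats against 4 allow. Among all genes tested, 0.449% were called higher in METH rats and 0.0666% lower, and the groups did not overlap in 6.39% (METH above in 3.75%, METH below in 2.65%). With 1 rat left out, the call was lost in 2 of 8 cases, since the FDR in the same test was 0.0649 without saline replicate 4 and 0.0620 without METH replicate 4, while the log2 fold change was 0.60 and 0.56. Without METH replicate 3 the log2 fold change was 0.61 and Crem was called (FDR = 0.0381, edgeR).

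**Figure D1:**
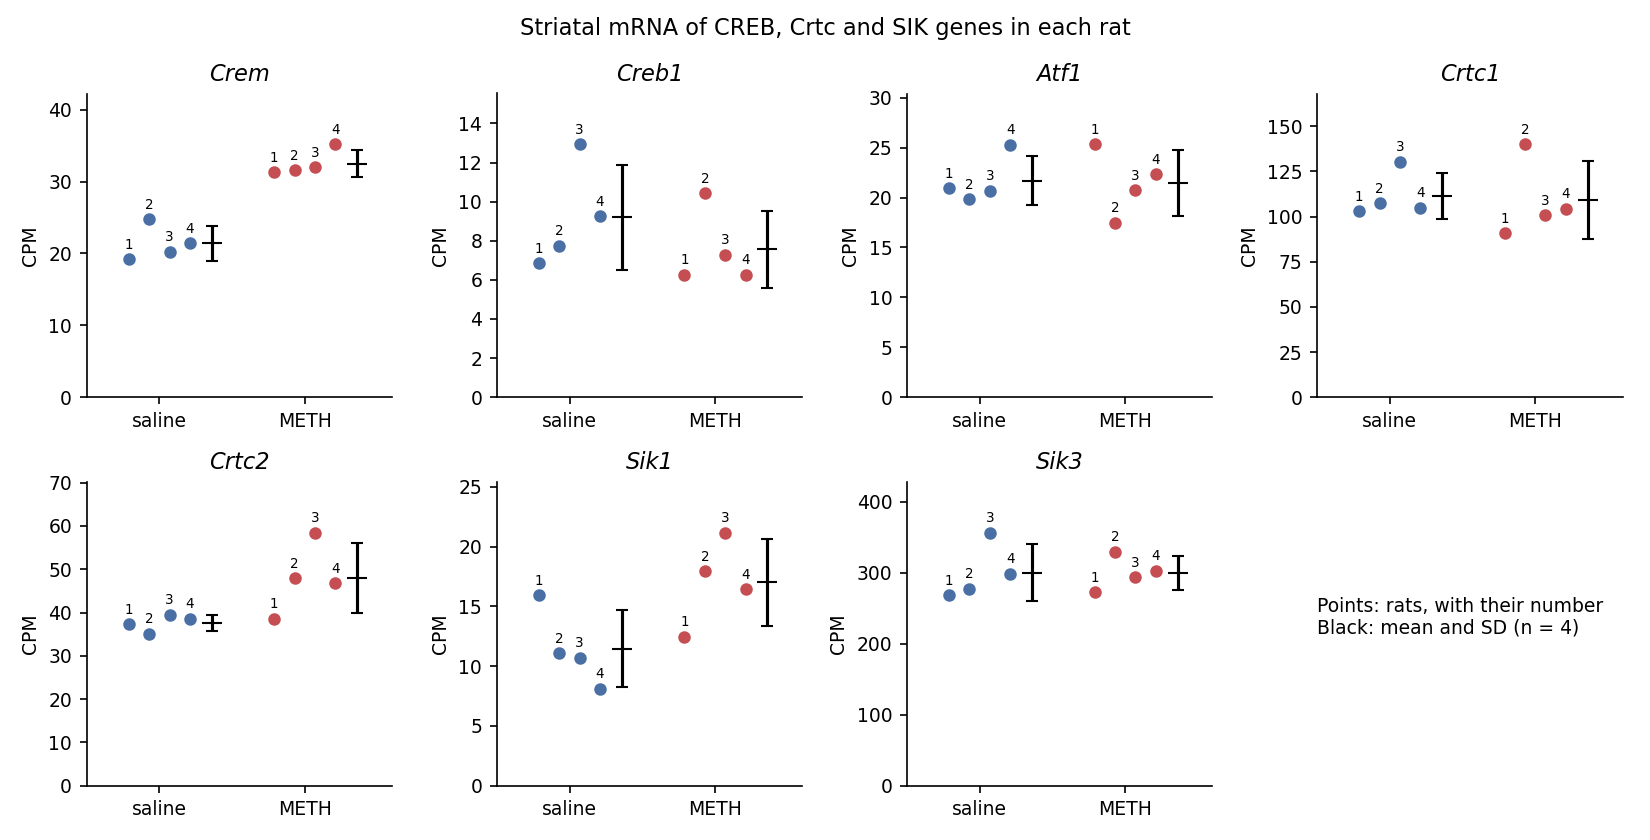
CPM (vertical axes, starting at 0) of each of the 7 measured genes in the 4 saline rats (blue) and the 4 METH rats (red), with the rat number beside each point and the mean and SD in black. Crem separates the groups, at 19.2 to 24.7 CPM in saline and 31.3 to 35.2 CPM in METH rats, while the groups overlap in the other 6 genes.

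The counts pool all transcripts of Crem, so that ICER and the full-length factor were not told apart. RefSeq (assembly GRCr8, not the rn6 build of the counts) gives start windows for 8 of the 9 genes. Atf1 had no window and was not searched. Each window holds 250 bases before and 50 after a transcript start, and both strands were searched for the full CRE, TGACGTCA, and for its 5-letter core, TGACG or CGTCA, outside a full CRE. The full CRE was found in 1.83% of the 33469 windows of all genes, and the core, full CREs included, in 21.2%. Of the 8 genes searched, Crem was the only one with a full CRE, in both of its internal windows and not in its first. The first internal window held it at position -56 and the second at -35 and at 40, counted from the start. The Sik1 window held no full CRE and a core at -191 and at -180. A stretch of 100 bases from each is shown because Crem and Sik1 are the CRE-driven members, with full CREs (Crem) and cores (Sik1) in capitals, read 5′ to 3′ on the strand of the gene at chr17:58984697-58984796 (+), chr17:58985390-58985489 (+) and chr20:9958757-9958856 (-) of GRCr8.
Crem, first internal start, -100 to -1: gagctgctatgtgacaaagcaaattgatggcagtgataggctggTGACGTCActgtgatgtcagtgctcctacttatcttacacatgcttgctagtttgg
Crem, second internal start, -100 to -1: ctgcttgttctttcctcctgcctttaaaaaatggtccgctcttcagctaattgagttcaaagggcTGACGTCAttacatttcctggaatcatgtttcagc
Sik1, -210 to -111: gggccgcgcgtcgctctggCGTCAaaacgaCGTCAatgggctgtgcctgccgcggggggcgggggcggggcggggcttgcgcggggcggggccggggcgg
Among the other windows, cores stood at 3 positions in Sik3 (-171, -154 and -95), at 3 in the first Creb1 window (-80, -59 and 9), at 2 in Sik2 (-59 and -46), at 2 in the first Crem window (-241 and -6) and at 1 in Crtc2 (-95). Crtc1, Crtc3 and the second Creb1 window held neither form. These matches are letters in the sequence and were not tested for binding.

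The activators Creb1 and Atf1 were not called. Creb1, the founding member of the family, was at 6.86, 7.75, 12.9 and 9.26 CPM in saline replicates 1 to 4 and at 6.26, 10.4, 7.29 and 6.27 CPM in METH replicates 1 to 4. The groups overlapped, with saline replicate 3 highest of all and METH replicate 2 next. The log2 fold change of Creb1 was -0.28 with a 95% interval of -0.77 to 0.20 (FDR = 0.655, edgeR quasi-likelihood test), an interval that holds both a clear fall and a small rise. Without saline replicate 3 it was -0.07 and without METH replicate 2 it was -0.48. Creb1 also had the fewest counts of the 7 genes, 119 to 268 per rat.

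Atf1, which binds the CRE alone or paired with CREB1, was at 20.9, 19.8, 20.7 and 25.3 CPM in saline replicates 1 to 4. In METH replicates 1 to 4 it was at 25.4, 17.5, 20.7 and 22.4 CPM. The highest and the lowest value of Atf1 both came from METH rats, and the means of the groups were nearly equal. Its log2 fold change was -0.01 with a 95% interval of -0.29 to 0.26 (FDR = 0.981, edgeR quasi-likelihood test), which excludes a rise of the size fitted for Crem. The sign of this small value changed when saline replicate 4, METH replicate 2 or METH replicate 3 was left out.

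Of the coactivators, Crtc2 was higher in METH rats before adjustment for the number of genes and Crtc1 was not. Crtc2, the coactivator best known for its role in the liver response to fasting, was at 37.3, 35.1, 39.5 and 38.6 CPM in saline replicates 1 to 4 and at 38.6, 48.0, 58.5 and 46.8 CPM in METH replicates 1 to 4. METH replicates 2, 3 and 4 lay above all saline rats, and METH replicate 1 lay among them. The log2 fold change was 0.35 (standard error 0.11, 95% interval 0.10 to 0.59), with an unadjusted p of 0.00864 in the edgeR quasi-likelihood test and FDR = 0.274, and Crtc2 was not called. The exact permutation test gave a two-sided p of 0.0571. The highest value came from METH replicate 3, the rat that stood apart on the first principal component, and without it the log2 fold change was 0.24.

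Crtc1, the member of this family known for its high level in brain, was at 102.9, 107.3, 130.3 and 104.9 CPM in saline replicates 1 to 4 and at 90.9, 140.1, 100.9 and 104.3 CPM in METH replicates 1 to 4. Its log2 fold change was -0.03 with a 95% interval of -0.30 to 0.24 (FDR = 0.954, edgeR quasi-likelihood test). The groups overlapped throughout, and the sign changed when saline replicate 3, METH replicate 1 or METH replicate 3 was left out.

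Of the kinases, Sik1 was higher in METH rats before adjustment and Sik3 was not. Sik1, the inducible member of its family, was at 15.9, 11.1, 10.7 and 8.13 CPM in saline replicates 1 to 4 and at 12.5, 17.9, 21.2 and 16.4 CPM in METH replicates 1 to 4. METH replicates 2, 3 and 4 lay above all saline rats, and METH replicate 1 lay below saline replicate 1. The log2 fold change was 0.57 (standard error 0.20, 95% interval 0.14 to 1.00), with an unadjusted p of 0.0136 in the edgeR quasi-likelihood test and FDR = 0.314. The exact permutation test gave a two-sided p of 0.0571, and Sik1 was not called. Its fitted change was nearly the size of that of Crem, with a standard error about as large again. Saline replicate 1, highest for Sik1 among saline rats, is the library with the cortical markers, and without it the log2 fold change of Sik1 was 0.77 (unadjusted p = 0.00140, FDR = 0.149, edgeR). Without METH replicate 3 it was 0.45 (unadjusted p = 0.0511, FDR = 0.666, edgeR).

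Sik3, a kinase with a known part in the regulation of sleep, was at 267.9, 277.2, 356.4 and 298.3 CPM in saline replicates 1 to 4. In METH replicates 1 to 4 it was at 272.5, 329.8, 293.8 and 303.0 CPM. All METH rats lay within the range of the saline rats. The log2 fold change was -0.00099 with a 95% interval of -0.21 to 0.20 (FDR = 0.999, edgeR quasi-likelihood test), and its sign changed under 6 of 16 alternatives.

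**Figure D2:**
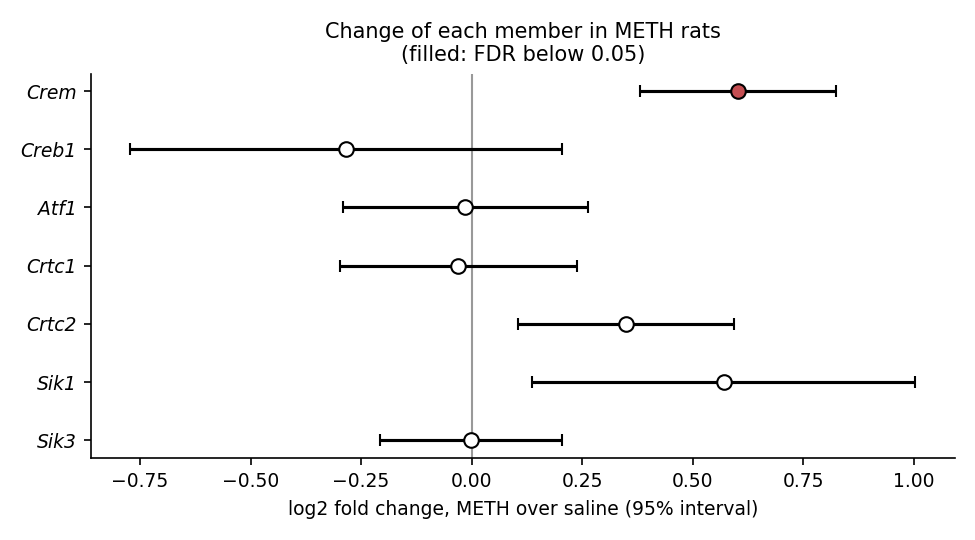
Log2 fold change of METH over saline (horizontal axis) for each measured gene, with its 95% interval from the edgeR fit; a filled point marks a call at an FDR below 0.05. Crem is filled at 0.60, the intervals of Crtc2 and Sik1 lie above 0 without a call, and those of Creb1, Atf1, Crtc1 and Sik3 span 0.

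Over the 7 genes, 1 was called (14.3%, against 0.516% of all genes tested) and 3 were higher at an unadjusted p below 0.05, as were 6.26% of all genes tested, while 4.88% of those were lower and no member was. The members were chosen with earlier results of these rats known, so these shares are not independent evidence of a change. The median log2 fold change of the 7 was -0.00099, against -0.0055 for all genes tested. Each family held 1 gene with a higher value in METH rats at that level, Crem, Crtc2 and Sik1, beside at least 1 that did not pass it.

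Whether members of a family changed to unequal extents was tested by the log2 ratio of 2 members within each rat, which does not depend on library scaling. With Crtc3 and Sik2 left out, 5 of the 9 planned pairs could be formed. The Crem to Creb1 log2 ratio was 1.24 ± 0.44 (SD, n = 4) in saline and 2.12 ± 0.38 (SD, n = 4) in METH rats, a difference of 0.88, by the exact permutation test (two-sided p = 0.0571, adjusted over the 5 pairs 0.143). The Crem to Atf1 log2 ratio differed by 0.63 with the same exact p. In both ratios the groups overlapped by 1 rat on each side. The Crtc2 to Crtc1 log2 ratio differed by 0.38 (exact permutation p = 0.0857) and the Sik1 to Sik3 log2 ratio by 0.58 (exact permutation p = 0.114), with adjusted values of 0.143 for both. The Creb1 to Atf1 log2 ratio differed by -0.25 (exact permutation p = 0.486). None of the 5 differences passed the test after adjustment. With 4 rats against 4 the smallest exact permutation p is 0.0286, which adjusted over 5 pairs is 0.143 for a single pair, so these values do not show that members of a family changed alike.

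**Figure D3:**
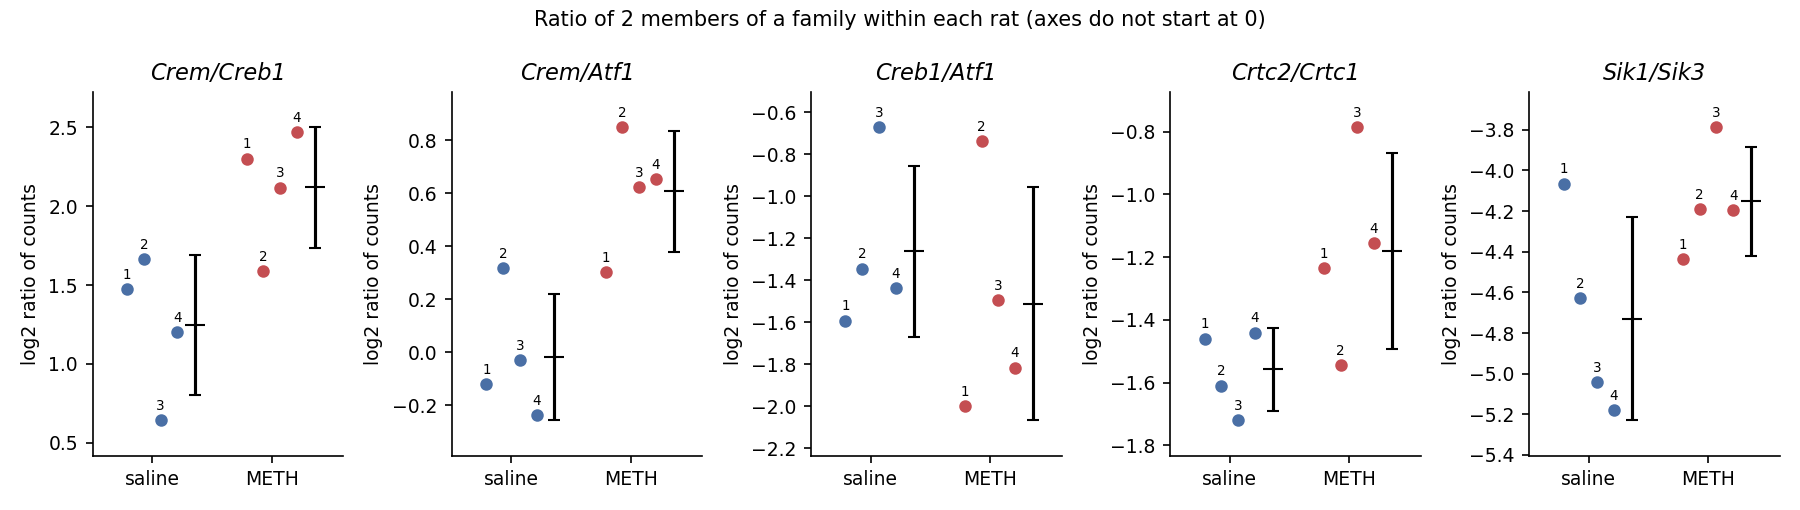
Log2 ratio of the counts of 2 genes of a family within each rat (vertical axes do not start at 0), for saline (blue) and METH (red) rats, with rat numbers and the mean and SD in black. The groups overlap in all 5 ratios, and the METH mean is higher in 4 of them.

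Creb1, Crtc1 and Sik3 varied alike among the rats. In each of these 3 genes saline replicate 3 was the highest saline rat and METH replicate 2 the highest METH rat, and saline replicate 1 was the lowest saline rat and METH replicate 1 the lowest METH rat. Saline replicate 3 and METH replicate 2 were also the lowest rats of their groups on the first principal component (-24.6 and 0.257). At the other end the match did not hold in METH rats. There METH replicate 1 was at 5.29 and METH replicate 3 was highest, at 39.5. Creb1 was nearly equal in METH replicates 1 and 4, at 6.26 and 6.27 CPM. Crem, Crtc2 and Sik1 had the order of these genes only in part. METH replicate 1 was lowest for all 3, saline replicate 1 was lowest for Crem and saline replicate 3 was highest for Crtc2. Their highest METH rats were METH replicate 4 for Crem and METH replicate 3 for Crtc2 and Sik1. The share of all genes with the order of Creb1, Crtc1 and Sik3 was not counted.

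No gene was called in 5 lists around CREB, the Crtc proteins and the SIKs. Among all genes tested 0.516% were called, a share at which lists of this size can hold no called gene. The lists include relatives of the members and SIK substrates beside genes that act on the members. The 5 lists held 72 tested genes, of which 3 were higher and 5 were lower at an unadjusted p below 0.05, or 11.1%, the same share as among all genes tested (11.1%). Other CREB and ATF factors had a median log2 fold change of -0.0016 over 14 genes. Atf5, a stress-induced factor, was at 53.0 ± 7.53 CPM (SD, n = 4) in saline and 71.8 ± 14.6 CPM (SD, n = 4) in METH rats (log2 fold change 0.44, FDR = 0.249, edgeR). Creb5 had the lowest log2 fold change of that list, -0.80 (FDR = 0.394, edgeR), from 4.21 to 2.42 CPM. Its saline replicate 1, at 1.81 CPM, lay below the METH rats and the other saline rats.

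G proteins, adenylyl cyclases, protein kinase A subunits and their inhibitors had a median log2 fold change of -0.05 over 17 genes. Pkia, an inhibitor of protein kinase A, was at 143.3 ± 18.5 CPM (SD, n = 4) in saline and 117.0 ± 14.0 CPM (SD, n = 4) in METH rats (log2 fold change -0.29, FDR = 0.341, edgeR). Adcy1, a calcium-stimulated cyclase, had -0.38 (FDR = 0.537, edgeR). CREB kinases and cofactors had a median of 0.0078 over 12 genes. The coactivator Crebbp was at 53.7 to 58.9 CPM in saline and 60.4 to 75.6 CPM in METH rats, without overlap (log2 fold change 0.24, FDR = 0.358, edgeR). The kinase Rps6ka1 was at 17.9 to 22.9 CPM in saline and 16.3 to 17.8 CPM in METH rats, also without overlap (log2 fold change -0.29, FDR = 0.358, edgeR).

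The list of LKB1 (Stk11) and its partners, calcineurin subunits, 14-3-3 proteins and class IIa histone deacetylases had a median log2 fold change of -0.07 over 18 genes. Cab39l, a partner of LKB1, was at 16.7 to 19.5 CPM in saline and 13.6 to 15.9 CPM in METH rats (log2 fold change -0.29, FDR = 0.357, edgeR), and Hdac9, a SIK substrate, had -0.44 (FDR = 0.488, edgeR). AMPK and its relatives, most of which share LKB1 with the SIKs, had a median of -0.0036 over 11 genes and none passed an unadjusted p below 0.05. Their largest log2 fold changes were -0.31 for Prkaa2 and -0.21 for Prkaa1, the catalytic subunits of AMPK. With the Wald test of DESeq2, 2 of the 72 genes were called, Camkk1 lower (log2 fold change -0.23 in edgeR) and Hdac5 higher (0.27). That test called 191 of all 12014 genes tested. These 2 genes are named because they were called there, after their values were seen. With the likelihood ratio test and with limma-voom 0 were called.

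Many known CREB target genes were higher in METH rats. Of 34 listed genes 33 were tested, and 16 (48.5%) were called higher and 0 lower, against 0.449% called higher among all genes tested. At an unadjusted p below 0.05, 22 were higher and 1 was lower, Gem. Their median log2 fold change was 0.62. The lowest was that of Nr4a2, -1.12 (FDR = 0.523, edgeR). Nr4a2 was at 3.86 ± 4.78 CPM (SD, n = 4) in saline and 1.76 ± 0.759 CPM (SD, n = 4) in METH rats. Because the list was drawn up with earlier results of these rats known, its count is not independent evidence of the direction. Without saline replicate 1, 16 were called, and without METH replicate 3, 13 were called.

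Among the called targets, Irs2, an insulin receptor substrate, was at 64.9 to 87.7 CPM in saline and 132.7 to 160.4 CPM in METH rats (log2 fold change 0.94, FDR = 0.000472, edgeR). The clock gene Per1 was at 78.8 to 98.4 CPM in saline and 129.2 to 162.5 CPM in METH rats (log2 fold change 0.74, FDR = 0.00152, edgeR). Fosb and Egr1, immediate early genes, had log2 fold changes of 1.26 and 1.02. For Junb, saline replicate 1 was at 258.4 CPM and the other saline rats at 144.5 to 157.6 CPM, while the METH rats were at 352.5 to 592.4 CPM. For Nr4a1, saline replicate 1 was at 146.5 CPM and the other saline rats at 45.4 to 65.3 CPM, below 275.8 to 317.4 CPM in the METH rats (log2 fold change 1.91). Saline replicate 1 was the highest saline rat for Junb, Nr4a1, Fosb, Egr1 and Sik1, and it was the lowest for Crem. The highest saline rat was saline replicate 3 for Irs2 and Per1 and saline replicate 4 for Nr4a3. Nr4a3 and Mir132, the primary locus of a CREB-driven miRNA, had the largest changes, 2.75 and 2.79. Mir132 had a low level, at 0.676 to 1.81 CPM (14 to 33 counts) in saline and 5.48 to 8.80 CPM in METH rats. Its highest saline rat was also saline replicate 1. The other called targets were Egr2, Fos, Arc, Nfil3, Rgs2, Cited2, Per2 and Mir212. The change of Crem (0.60) lay near the median of this list, and that of Sik1 (0.57) just under it.

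**Figure D4:**
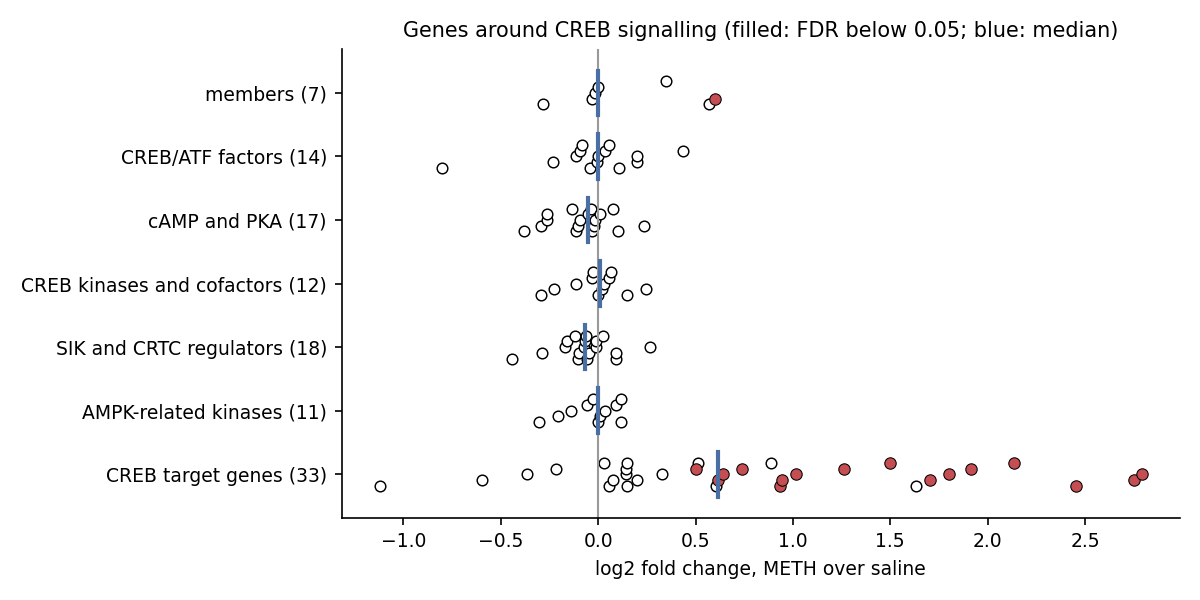
Log2 fold change of METH over saline (horizontal axis) for the 7 members and for the tested genes of 6 related lists, with the number tested in brackets, filled points for calls at an FDR below 0.05 and a blue bar at each median. The filled points are Crem and 16 CREB target genes, whose median is 0.62, while the 5 other lists have medians from -0.07 to 0.0078.

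RefSeq start windows were matched for 26 of the 34 targets. A full CRE was found in 6 of these (Ppargc1a, Sst, Vgf, Scg2, Dusp1 and Btg2), against 2.00% of all genes, and none of these 6 was called in the quasi-likelihood test over all 8 rats. Dusp1 and Vgf were called in the likelihood ratio test of edgeR, Vgf also with DESeq2. In the quasi-likelihood test Dusp1 was called without saline replicate 1 and Vgf without METH replicate 1. Of the 10 called targets with a window, 0 held the full CRE and 7 held the core (Junb, Egr1, Egr2, Nr4a1, Per2, Nfil3 and Rgs2), against 23.0% of all genes. The core was not counted in the matched targets that were not called. Its share therefore does not set the called targets apart from the rest of a list of known CREB targets. A missing match says only that these letters are not in this window.

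The genes most like Crem and Sik1 were taken by the mean absolute difference of log2 CPM, relative to the saline mean, over the 8 rats, among 10975 genes. Closest to Crem were Rarg, a retinoic acid receptor, at 0.087, Kcnab3, a potassium channel subunit, at 0.096, Lrrfip2 at 0.11, Fam181b at 0.12 and Bcl6, a transcriptional repressor, at 0.12, against a median of 0.39 over all genes. Closest to Sik1 were Evc at 0.11 and Lime1, Tnfrsf12a, Plekhn1 and Rreb1 at 0.14 to 0.15, against a median of 0.45. The log2 fold changes, 0.43 to 0.59 for the genes like Crem and 0.48 to 0.63 for those like Sik1, follow from this choice and were given no test.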

How the data were processed

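Striatal mRNA libraries were made by poly(A) capture with a kit that does not mark strand. Reads were trimmed with Cutadapt 1.18, aligned to rn6 with STAR 2.7.0e and counted per gene with featureCounts (Subread 1.6.4), and the authors deposited raw counts, 1 column per rat. The annotation and the handling of reads shared by genes are not given in the sources used here, so overlapping genes are uncertain.

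Counts were filtered with filterByExpr (minimum count 10), scaled by TMM and tested with the quasi-likelihood test of edgeR 4.0.16 (R 4.3.3, limma 3.58.1), with Benjamini-Hochberg adjustment over all genes. DESeq2 1.42.0 was an alternative. Log2 CPM used a prior count of 2. Standard errors are the log2 fold change divided by the square root of F. On simulated counts the fit was checked against known changes. For pairs of rats of a group, the chi-square of their counts over its degrees of freedom was 10.1 to 27.6, so all 8 libraries were counted as separate.

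Members and lists were chosen with earlier results of these data known. Named genes are the members, the called genes (at most 8) and the 2 largest changes of each list, and 5 genes most like Crem and Sik1. Genes outside this rule (Camkk1, Hdac5, Gem, Nr4a2, the further called targets, and targets with a CRE) were named after their values were seen. The pairs with Crtc3 or Sik2 were not analysed. A marker gene of the lists is not reported here and was left out of the sums.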

Additional observations from a re-analysis of the deposited data

Results flagged for a closer look

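Of 70 groups of 4 rats (the 7 members and 28 other named genes), 2 had a rat whose distance from the closest other rat, divided by the range of its group, was past Dixon's 95% value, where chance gives about 5%. Creb5 in saline replicate 1 had 33 counts (1.81 CPM, quotient 0.870), against 4.69 to 5.39 CPM in the other saline rats. Junb in saline replicate 1 was at 258.4 CPM (quotient 0.851), against 144.5 to 157.6 CPM. Both came from the rat whose cortical markers summed to 77.2 CPM, and the part of that RNA in these values was not tested. No group of the 7 members was past that value.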

How the results depend on the processing

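Crem was higher in METH rats under all 16 alternatives, with a log2 fold change from 0.55 to 0.68 and an FDR from 3.50e-05 (DESeq2) to 0.0848. The call was lost with the replicate block (log2 fold change 0.61, FDR 0.0848, 0 members called) and without saline replicate 4 or METH replicate 4, so that members called ranged from 0 to 1 with a rat left out. Crtc2 (0.24 to 0.44) and Sik1 (0.44 to 0.77) were positive and not called throughout. Deviations of same-numbered rats, which are different animals, correlated at -0.085 on average, so the numbers do not pair them. In the block test of ratios, 4 pairs cannot give p below 0.125.

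Calls over all genes numbered 191 (141 higher, 50 lower) with DESeq2, 170 (131 and 39) with the likelihood ratio test and 37 (35 and 2) with the block, against 62 (54 and 8). The filter of at least 1 count gave 13 lower genes. The cause was not tested. With a rat left out the counts were 37 to 70, 35 to 66 higher and 2 to 9 lower, with the lowest without saline replicate 2.

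Values near 0 changed sign. Sik3 had 0.0043 with limma-voom, 0.00085 with every gene of at least 1 count and 0.0048 with the block. With a rat left out, Sik3 ranged from -0.051 to 0.092, Crtc1 from -0.17 to 0.054 and Atf1 from -0.10 to 0.074. Total-count scaling moved the median of all genes to -0.041 from -0.0055. Of the members, Creb1 had the fewest counts, 119 to 268 per rat.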
